A study of Mus musculus with 10 samples.

Results

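Histone genes were described in single-cell RNA-seq data from mouse intestinal organoids, which are epithelial cultures grown from crypts of the proximal small intestine. The members were the genes of the authors' count table whose symbols begin with Hist1h to Hist4h, H1f, H2af or H3f and that held at least 10 unique molecular identifiers (UMIs, counted mRNA molecules) over all kept organoid cells. This gave 74 of the 23810 genes in the table, namely 8 linker genes, 8 variant genes, 57 core replication genes and the antisense transcript H3f3aos. Of the core replication genes, 16 encode H2A, 16 H2B, 12 H3 and 13 H4, and 51 of the 74 members carry a symbol of the Hist1 cluster.

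The study compared 3 media, each used on organoids embedded in Matrigel. ENR-organoids (3 libraries, passages 2, 7 and 3) were grown with murine EGF at 50 ng/mL, murine Noggin at 100 ng/mL and human R-Spondin 1 at 500 ng/mL. Hyper-organoids (3 libraries, passages 1, 6 and 3) were grown with the BMP receptor inhibitor LDN193189 at 0.2 μM, GSK-3 Inhibitor XV at 0.1 μM, Pexmetinib at 1 μM, the histone deacetylase inhibitor VPA at 500 μM, the EZH2 inhibitor EPZ6438 at 2 μM, EGF, FGF2 at 20 ng/mL and R-Spondin 1 conditioned medium at 10%. -VE-organoids (2 libraries, passages 1 and 6) had the Hyper medium without VPA and EPZ6438. Replicate numbers name the culture series, read here from the shared first character of the library codes. The labels do not say whether series 2 was a separate culture or that of series 1 at a later passage. In series 1 and 2 the -VE- and Hyper-organoids were derived from ENR-organoids. In series 3 both the ENR- and the Hyper-organoids came from primary crypts, and there was no -VE library. Within series 1 and 2 the media of Hyper- and -VE-organoids therefore differ by VPA and EPZ6438. The contrast of these groups also includes the Hyper library of series 3, so series and origin differ along with the 2 agents there. The contrast with ENR-organoids changes the whole medium, and the 3 contrasts share their libraries. Another pair of libraries, 1 per group, came from colonic crypts of normal mice and of mice given dextran sulfate sodium (DSS), which injures the colon.

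Histones package DNA into nucleosomes, in which core histones H2A, H2B, H3 and H4 form the spool and linker H1 binds the DNA between spools. Most core and several linker genes are replication dependent: they lie in clusters, are transcribed in S phase, and their mRNAs end in a short stem-loop in place of a poly(A) tail. Variant genes such as H2afz (H2A.Z), H2afx (H2A.X), H2afy (macroH2A1) and H3f3a and H3f3b (both H3.3) are transcribed outside S phase as well and yield polyadenylated mRNA. Because the 3′ assay captures mRNA through poly(A), the values of replication genes here cover only molecules that could be captured that way, and stem-loop mRNAs without a tail are not measured.

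The stem-loops are shown because they bear on which histone mRNAs such an assay can count. A match to the 16-base stem-loop pattern was found in the annotated transcripts (GENCODE vM21, GRCm38) of 46 of the 74 members, against 0.155% of 55450 genes. There were 9 different stem-loop sequences, of which the commonest, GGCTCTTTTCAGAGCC, was held by 25 members. In the following transcript ends, all 5′ to 3′ on the gene's own strand, capitals mark the stem-loop, and Hist1h2ap ends 3 bases past it, whereas Hist3h2ba runs on for 169, Hist1h4i for 330, H2afx for 822 and Hist1h1c for 840 annotated bases.
Hist1h2ap: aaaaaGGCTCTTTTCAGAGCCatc
Hist3h2ba: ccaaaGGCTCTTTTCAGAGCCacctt
Hist1h4i: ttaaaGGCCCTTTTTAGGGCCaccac
H2afx: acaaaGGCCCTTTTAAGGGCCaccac
Hist1h1c: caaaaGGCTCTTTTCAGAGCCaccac

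Among the 63 Hist members, 23 had a transcript annotated for 100 bases or more past the stem-loop, and their mean level over the 8 organoid libraries had a median of 4.08 CPM (counts scaled to a common library total) over the 22 of them that were tested. The 22 members with a shorter end had a median of 1.55 CPM, and the 18 with no match had a median of 1.67 CPM. Several of these 18 have short annotated transcripts, such as 381 bases for Hist1h2bl and 312 for Hist1h4k. A missing match therefore does not show that a gene lacks a stem-loop, since the annotation may end ahead of it. Hist1h2ap, an H2A gene with a mean of 120.7 CPM, belonged to the short group, so the length of the annotated end did not order single genes. Within the core replication genes 16 of 57 had a mean under 1 CPM and only 5 reached 10 CPM, namely Hist1h2ap, Hist1h2bc, Hist1h2ae, Hist1h4i and Hist1h4d. Copies of H2A, H2B, H3 and H4 within the clusters have nearly identical coding sequence, so the split of counts between such copies is uncertain.

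The promoters of the 4 members that carry the largest or broadest changes described below are shown for their base composition (RefSeq, GRCm38.p6, 250 bases before to 50 after the gene start, 5′ to 3′ on the gene's strand). They lie at chr10:61783815-61784114 (minus strand) for H2afy2, chr6:87981433-87981732 (minus strand) for H1fx, chr15:79027962-79028261 (plus strand) for H1f0 and chr11:58948661-58948960 (plus strand) for Hist3h2ba. Capitals mark 3 words read on either strand: CCAAT, the TATA box word TATAAA, and AAACACA, known as the H1 box.
H2afy2: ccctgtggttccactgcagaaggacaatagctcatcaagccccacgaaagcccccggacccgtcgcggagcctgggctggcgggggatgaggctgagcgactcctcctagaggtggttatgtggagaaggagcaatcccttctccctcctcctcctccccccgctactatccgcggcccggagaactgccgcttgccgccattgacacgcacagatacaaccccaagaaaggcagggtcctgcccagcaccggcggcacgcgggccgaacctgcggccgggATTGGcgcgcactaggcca
H1fx: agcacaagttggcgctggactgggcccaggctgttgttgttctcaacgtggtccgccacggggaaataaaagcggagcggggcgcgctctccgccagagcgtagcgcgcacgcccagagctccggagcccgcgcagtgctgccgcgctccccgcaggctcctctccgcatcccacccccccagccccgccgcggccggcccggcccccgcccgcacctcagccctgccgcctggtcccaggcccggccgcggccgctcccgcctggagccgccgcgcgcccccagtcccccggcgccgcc
H1f0: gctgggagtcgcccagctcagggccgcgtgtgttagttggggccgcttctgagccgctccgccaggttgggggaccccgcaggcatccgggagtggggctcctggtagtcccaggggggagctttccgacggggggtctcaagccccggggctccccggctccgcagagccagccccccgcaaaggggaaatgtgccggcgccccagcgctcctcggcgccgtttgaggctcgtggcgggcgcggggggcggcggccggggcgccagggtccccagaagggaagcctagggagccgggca
Hist3h2ba: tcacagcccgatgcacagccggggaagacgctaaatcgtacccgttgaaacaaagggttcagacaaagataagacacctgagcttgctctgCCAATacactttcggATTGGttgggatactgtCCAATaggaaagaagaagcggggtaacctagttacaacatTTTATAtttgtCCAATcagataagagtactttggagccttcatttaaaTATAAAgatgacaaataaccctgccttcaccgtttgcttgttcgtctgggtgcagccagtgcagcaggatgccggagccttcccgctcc

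A promoter was found for 66 members. CCAAT stood in 82.4% of the 51 core replication promoters, in 75% of the 8 linker promoters and in 85.7% of the 7 variant promoters, against 37.4% of all 32851 promoters. TATAAA stood in 56.9% of core replication, 50% of linker and 14.3% of variant promoters, against 13.6% of all. AAACACA stood in 62.5% of linker promoters, 14.3% of variant promoters and 3.92% of core replication promoters, against 7.18% of all. The RefSeq windows of H1fx and H1f0 held none of these words and had 40 and 29 CpG dinucleotides, while the window of Hist3h2ba held both CCAAT and TATAAA and had 11 CpG. H2afy2 had 23 CpG and CCAAT, and the median over all promoters was 7 CpG. These are matches of letters, with no measurement of binding. The windows follow the RefSeq starts, which can differ from the GENCODE starts. The GENCODE starts of H1f0 (79028450) and H2afy2 (61784147) lie outside their windows. That of H1fx (87981637) lies inside its window but away from the RefSeq start. A word absent from these windows may therefore still lie near the GENCODE start.

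The 8 organoid libraries held 22139 kept cells (1983 to 4293 each) and 89124015 to 170019527 UMIs each, and at most 5 barcodes were shared between any pair of libraries. The labels do not say that the libraries came from separate mice, so p-values measure only the spread between these libraries. Class labels are those of the authors' annotation. The class named SC (stem) was highest for 3 of its 4 markers in ENR-organoids, TA (transit amplifying) for 3 of 4, Paneth (PC), enterocyte (EC), enteroendocrine (EE) and goblet (GC) for 4 of 4 each, and enterocyte progenitor (EP) for 2 of 4. Classes differed in share between media: stem cells made up 9.75% to 14.7% of ENR-, 24.3% to 28.2% of -VE- and 40.0% to 44.1% of Hyper-organoid cells, and enterocyte progenitors 22.2% to 34.5%, 4.28% to 4.39% and 0.085% to 0.107%. A value over all kept cells therefore mixes class shares with levels within a class, and the 2 cannot be told apart there. For that reason both contrasts of Hyper-organoids are also given within the stem and transit amplifying classes, while -VE- and ENR-organoids were compared over all kept cells only. The summed level of 6 leukocyte markers was 0.422 to 0.709 CPM in every library. That of 6 stromal markers was 0.359 to 0.545 CPM in ENR-, 0.365 to 0.493 in -VE- and 0.964 to 1.43 in Hyper-organoids, with all 6 detected in Hyper-organoids and Col3a1 at 0 in the others, and its part in the results was not tested.

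Over all kept cells, 3 of 73 tested members were called higher in Hyper- than in ENR-organoids (edgeR's quasi-likelihood test, Benjamini-Hochberg adjusted p under 0.05 and at least 2-fold), against 18.2% of all 16037 genes tested. These were H2afy2 (macroH2A2), H1fx (linker H1.10) and Hist3h2ba (an H2B gene), with rises of 148-, 10.2- and 21.3-fold. Lower by the same rule were 3 of 73, namely Hist2h3c2, H3f3aos and Hist1h1d, against 4.75% of all genes. With the fold set aside, 6 of 73 members had an adjusted p under 0.05 upward, against 29.5% of all genes, and 20 of 73 downward, against 27.3%, and the median log2 difference over the members was -0.27, against -0.01 over all genes.

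**Figure D1:**
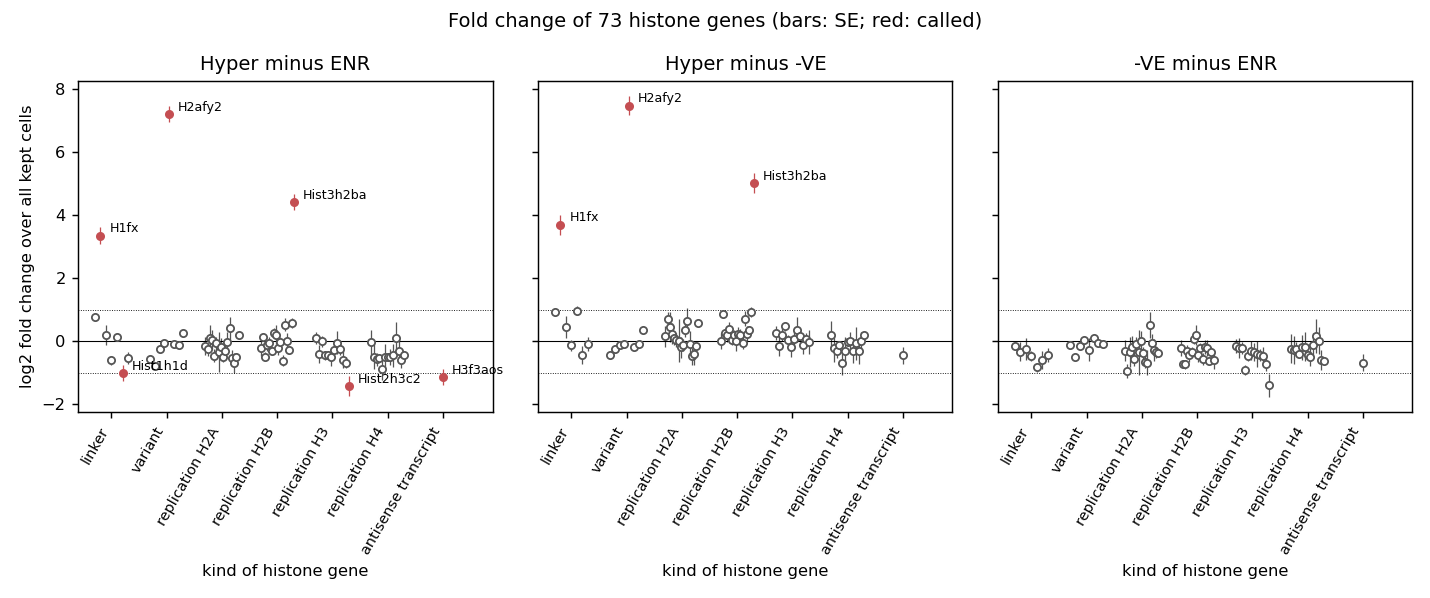
Log2 fold changes of the tested members in the 3 contrasts over all kept cells (y axis, log2 scale), by role along the x axis, with 1 point per gene. H2afy2, Hist3h2ba and H1fx stand at 3.35 to 7.48 in both contrasts of Hyper-organoids, while no member was called between -VE- and ENR-organoids.

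Against -VE-organoids the same 3 genes, H2afy2, H1fx and Hist3h2ba, were called higher in Hyper-organoids (3 of 73, against 16.1% of all genes) and none was called lower by edgeR (0 of 73, against 2.51%) or by DESeq2, although 2 members were lower at an unadjusted p under 0.05. At an adjusted p under 0.05 and any fold, 13 of 73 were higher (against 25% of all genes) and 2 of 73 lower (against 22.6%). Between -VE- and ENR-organoids no member was called higher (against 1.35% of all genes) or lower (against 1.2%), although 9 of 73 members were lower in -VE-organoids at an adjusted p under 0.05 by edgeR (against 3.62% of all genes) and 0 were higher (against 4.26%). At an unadjusted p under 0.05 there were 19 members, all lower in -VE-organoids, against 24% of all genes in either direction. DESeq2 called 1 member there, Hist2h3c2. With the culture series as a block, Hyper- against -VE-organoids called 5 members, the added ones being H1f0 (log2 difference 1.02) and Hist1h1c (1.04), which are just under 2-fold without the block.

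H2afy2 encodes macroH2A2, a variant with a large non-histone domain that is associated with repressed chromatin. Its level was 0.217, 0.117 and 0.0955 CPM in the 3 ENR libraries (21, 14 and 8 UMIs) and 0.154 and 0.0913 CPM in the -VE libraries (18 and 15 UMIs). In the Hyper libraries it was 20.8, 24.04 and 19.3 CPM (3061, 3624 and 1826 UMIs). Every Hyper library was thus far above every other library, and the groups did not overlap. The log2 difference was 7.21 ± 0.26 (SE) against ENR-organoids (adjusted p = 8.8e-07, edgeR) and 7.48 ± 0.31 against -VE-organoids (adjusted p = 4.9e-06, edgeR). H2afy, which encodes the related macroH2A1, stood at 312, 318 and 328 CPM in ENR-, 326 and 334 in -VE- and 308, 312 and 303 in Hyper-organoids, and it did not pass the test in any contrast over all cells. The gene lies at chr10:61738665-61784147 (GRCm38, minus strand, 9 exons).

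H1fx encodes H1.10, a replication-independent linker histone whose single exon lies at chr6:87980421-87981637 (minus strand). It stood at 2.74, 2.37 and 2.13 CPM in ENR-, 2.25 and 1.58 in -VE- and 18.4, 34.9 and 20.7 in Hyper-organoids. The Hyper libraries were all higher than the others, with replicate 2 the highest of them. The log2 difference was 3.35 ± 0.27 against ENR- (adjusted p = 2.8e-05) and 3.69 ± 0.33 against -VE-organoids (adjusted p = 0.00011) by edgeR.

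Hist3h2ba lies at chr11:58948920-58949533 (plus strand, 1 exon), with the H2A gene Hist3h2a starting 5765 bases further on the same strand. It had 0.331, 0.426 and 0.693 CPM in ENR- (32 to 58 UMIs), 0.376 and 0.262 in -VE- and 9.60, 10.6 and 10.4 in Hyper-organoids (990 to 1591 UMIs). Groups did not overlap, and the log2 difference was 4.41 ± 0.26 (adjusted p = 6.4e-06, edgeR) and 5.01 ± 0.32 (adjusted p = 3.0e-05, edgeR) against ENR- and -VE-organoids. Its neighbour Hist3h2a stood at 9.44, 9.96 and 10.7 CPM in ENR-, 8.88 and 6.56 in -VE- and 11.8, 11.1 and 11.4 in Hyper-organoids. For Hist3h2a only the contrast with -VE-organoids passed, at a log2 difference of 0.57 ± 0.13 (adjusted p = 0.0078, edgeR).

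Among the linkers, H1f0 encodes H1.0, known to accumulate in cells that leave the cycle and differentiate. Its level was 318, 359 and 286 CPM in ENR-, 291 and 285 in -VE- and 582, 593 and 476 in Hyper-organoids. The Hyper libraries did not overlap the others, and the rise was 1.71-fold (95% interval 0.57 to 0.98 on the log2 scale, adjusted p = 0.0004) against ENR- and 1.91-fold (adjusted p = 0.0006) against -VE-organoids by edgeR, each under the 2-fold limit. Hist1h1c, the linker H1.2, fell by 0.84 on the log2 scale from ENR- to -VE-organoids (adjusted p = 0.015, edgeR) and rose from -VE- to Hyper-organoids by 0.96 ± 0.14 (adjusted p = 0.0012, edgeR). Its levels were 33.0, 39.5 and 31.3 CPM in ENR-, 17.7 and 21.02 in -VE- and 39.4, 41.3 and 31.9 in Hyper-organoids, so that the -VE libraries were lowest and the other groups overlapped.

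The other tested linkers were lower in Hyper- than in ENR-organoids or did not pass. Hist1h1d, linker H1.3, was called lower in Hyper- than in ENR-organoids, with 19.9, 20.2 and 11.2 CPM against 9.12, 10.0 and 5.94, and ENR replicate 3 lay nearest the Hyper libraries. The log2 difference was -1.03 ± 0.26 (adjusted p = 0.0089, edgeR), and without ENR replicate 1, ENR replicate 2 or Hyper replicate 3 it was under 2-fold, at -0.91, -0.89 and -0.83, as it was with at least 10 CPM required in 2 libraries (-0.91) and over all barcodes (-0.78). Hist1h1b (H1.5) had 31.4, 30.1 and 20.5 CPM in ENR- and 18.1, 16.1 and 19.3 in Hyper-organoids, a fall of 0.62 on the log2 scale (adjusted p = 0.0086, edgeR). Hist1h1e (H1.4) had 61.3, 66.8 and 41.7 against 37.9, 47.0 and 31.3 CPM, with groups that overlapped and an adjusted p of 0.038 by edgeR. Hist1h1a (H1.1) stood at 2.45 to 5.30 CPM in ENR- and 3.27 to 6.20 in Hyper-organoids and did not pass. The testis gene Hist1h1t, with 28 UMIs in all organoid libraries the lowest member, was not tested, and H1foo with 8 UMIs lay just outside the rule.

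**Figure D2:**
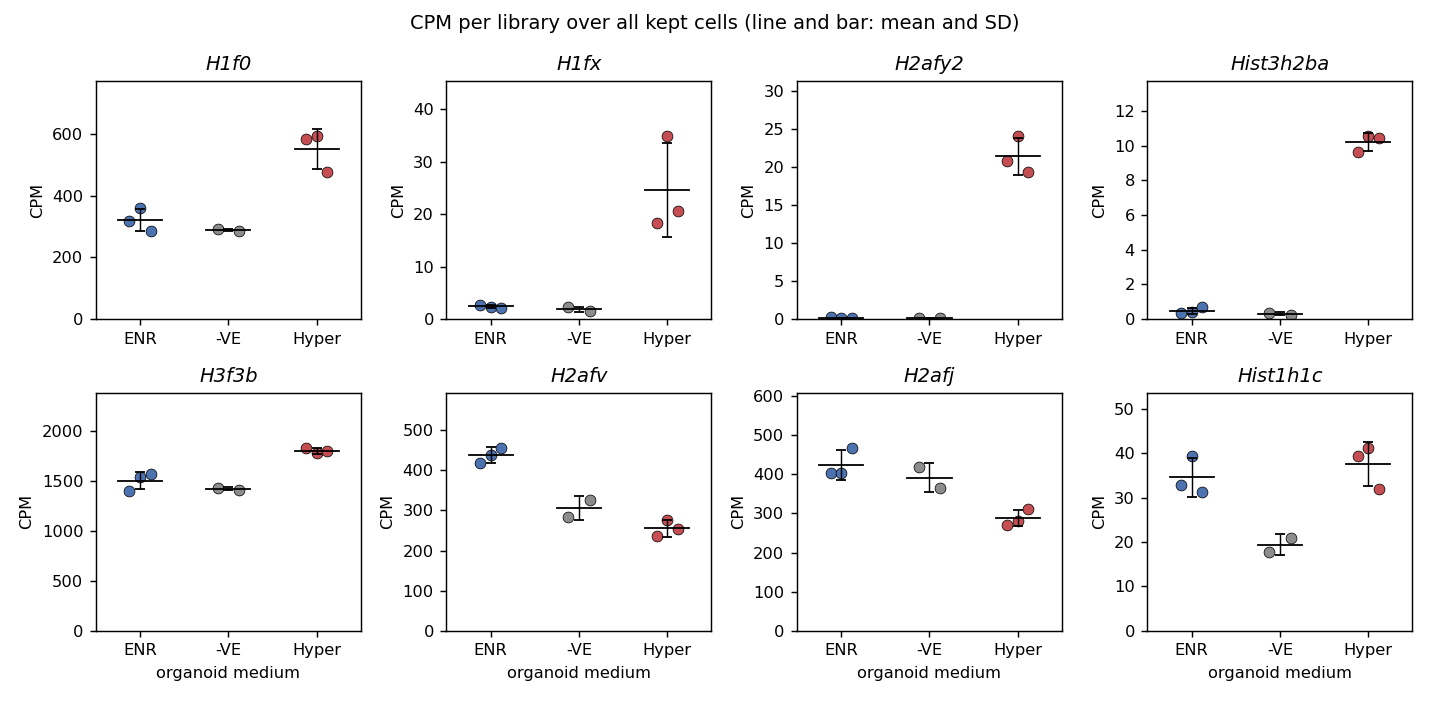
Level of 8 members in each organoid library (y axis, CPM over all kept cells) by medium (x axis); points are libraries, and the bar and whiskers are mean ± SD of 3, 2 and 3 libraries. H2afy2, H1fx, Hist3h2ba and H1f0 are higher in all 3 Hyper libraries, and Hist1h1c is lowest in the -VE libraries.

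Of the variants, H3f3b and H3f3a encode the same H3.3 protein from separate genes and differed in opposite directions between Hyper- and ENR-organoids. H3f3b had 1406, 1540 and 1573 CPM in ENR-, 1434 and 1414 in -VE- and 1838, 1782 and 1799 in Hyper-organoids. The Hyper libraries were all higher, by 1.20-fold against ENR- (adjusted p = 0.0032) and 1.27-fold against -VE-organoids (adjusted p = 0.0023) in edgeR. H3f3a had 1066, 1148 and 1122 CPM in ENR- and 964, 1024 and 1041 in Hyper-organoids, a fall of 0.14 on the log2 scale (adjusted p = 0.044, edgeR). The antisense transcript H3f3aos, whose start lies 167 bases from that of H3f3a on the opposite strand, had 0.435, 0.409 and 0.597 CPM (42 to 50 UMIs) in ENR- and 0.231, 0.186 and 0.232 CPM (22 to 34 UMIs) in Hyper-organoids. It was called lower at -1.15 ± 0.25 on the log2 scale (adjusted p = 0.0046, edgeR), and at -0.96 without ENR replicate 3.

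The H2A variants other than macroH2A2 were lower in Hyper-organoids or did not pass. H2afv, the second gene of H2A.Z, had 418, 439 and 456 CPM in ENR-, 284 and 327 in -VE- and 235, 277 and 253 in Hyper-organoids. The groups stood in that order without overlap, with falls of 0.78 (ENR to Hyper, adjusted p = 9.0e-05), 0.52 (ENR to -VE, adjusted p = 0.016) and 0.26 (-VE to Hyper, adjusted p = 0.040) on the log2 scale by edgeR. H2afz, which encodes the other H2A.Z protein, stood at 1543, 1651 and 1869 CPM in ENR-, 1740 and 1873 in -VE- and 1639, 1484 and 1599 in Hyper-organoids and passed in no contrast. H2afj, encoding H2A.J, a variant reported to rise in senescent cells, had 403, 402 and 468 CPM in ENR-, 418 and 365 in -VE- and 271, 282 and 311 in Hyper-organoids. Here the Hyper libraries were lowest, by 0.56 ± 0.09 against ENR- and 0.44 ± 0.10 against -VE-organoids on the log2 scale (adjusted p = 0.00081 and 0.0062, edgeR). H2afx, whose product is phosphorylated at DNA breaks, had 194, 217 and 193 CPM in ENR- and 176, 180 and 146 in Hyper-organoids, a fall of 0.27 on the log2 scale (adjusted p = 0.028, edgeR).

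Among the 57 core replication genes, Hist3h2ba was the 1 called higher and Hist2h3c2 the 1 called lower in Hyper- than in ENR-organoids, while 2 rose and 12 fell at an adjusted p under 0.05 and 43 did not pass, where the shares of all genes at that rule are the 29.5% and 27.3% given above. Hist2h3c2, an H3 gene, had 0.383, 0.651 and 0.788 CPM (37 to 78 UMIs) in ENR- and 0.258, 0.172 and 0.243 CPM (23 to 38 UMIs) in Hyper-organoids, without overlap, at -1.44 ± 0.32 on the log2 scale (adjusted p = 0.0057, edgeR). The 2 that rose were Hist3h2ba and Hist2h2be. Hist2h2be, an H2B gene, had 2.09, 2.21 and 2.10 CPM in ENR-, 1.94 and 1.42 in -VE- and 3.02, 3.08 and 3.44 in Hyper-organoids, 1.49-fold above ENR- (adjusted p = 0.011) and 1.90-fold above -VE-organoids (adjusted p = 0.0030) by edgeR.

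The 5 core replication genes of highest count differed among themselves. Hist1h2ap ranged from 42.5 to 149 CPM over the ENR libraries, wider than the whole Hyper range of 119 to 150, and passed in no contrast over all cells. Hist1h2ae behaved alike, with 18.7 to 38.4 CPM in ENR- and 20.9 to 37.1 in Hyper-organoids. Both were lowest in ENR replicate 3 among the ENR libraries. Hist1h4i fell from 20.7, 22.6 and 22.6 to 16.3, 15.3 and 14.9 CPM, by 0.50 on the log2 scale (adjusted p = 0.00034, edgeR), and Hist1h4d from 19.4, 17.1 and 14.6 to 12.2, 11.5 and 11.7, by 0.53 (adjusted p = 0.0051, edgeR). Hist1h2bc had 52.3, 55.8 and 60.6 CPM in ENR-, 35.9 and 31.9 in -VE- and 61.8, 56.6 and 64.6 in Hyper-organoids. It was lowest in -VE-organoids, falling by 0.73 from ENR- to -VE-organoids (adjusted p = 0.0053, edgeR) and rising by 0.85 ± 0.09 from -VE- to Hyper-organoids (adjusted p = 0.00024, edgeR). Hist1h2ac, which starts 251 bases from Hist1h2bc on the opposite strand, also was lowest in -VE-organoids, with 9.68, 9.37 and 10.3 CPM in ENR-, 5.25 and 4.85 in -VE- and 6.69, 6.61 and 11.2 in Hyper-organoids. The other members that fell from ENR- to -VE-organoids at an adjusted p under 0.05 by edgeR were Hist1h3d, Hist1h2be, Hist4h4, Hist2h2bb and Hist1h4i, by 0.92, 0.74, 0.64, 0.62 and 0.46 on the log2 scale.

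Summed over all members of a role, the linkers took 371 to 509 CPM in ENR-, 371 in both -VE- and 618 to 794 in Hyper-organoids, so the Hyper range lay above the others, and H1f0 supplied most of it. The core replication genes summed to 264 to 440 CPM in ENR-, 292 to 365 in -VE- and 385 to 436 in Hyper-organoids, and the variants to 5308 to 5647, 5245 to 5359 and 5690 to 5800. Core sums overlapped between ENR- and Hyper-organoids, with the Hyper library at 436 against 440 CPM in series 1, 385 against 375 in series 2 and 399 against 264 in series 3. The variant sums of Hyper-organoids lay above the rest by a small margin. All these sums are CPM of the library total, without the scaling of the fits used for the single genes above. The variant margin and the order of the core sums in series 1 and 2 are small enough to change with that scaling. In the fit the median log2 difference of the core replication genes was -0.28 against ENR-organoids.

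Within the stem class 64 members were tested. Against ENR-organoids 6 were called higher in Hyper-organoids (against 15.2% of 13920 genes) and 5 lower (against 2.8%), and against -VE-organoids 5 were called higher (against 14.7%) and 5 lower (against 1.76%). The calls in the lower direction were the less stable. DESeq2 called 2 lower in each contrast, against ENR-organoids 2 were left without ENR replicate 1, ENR replicate 2 or Hyper replicate 2, and 3 without ENR replicate 3, Hyper replicate 3, -VE replicate 1 or -VE replicate 2. Against -VE-organoids 1 was left without -VE replicate 2 or Hyper replicate 2, 2 without Hyper replicate 3 and 3 without ENR replicate 1 or -VE replicate 1, while the higher calls stayed at 5 to 7 and at 5. At an adjusted p under 0.05 and any fold (edgeR), 9 of 64 were higher (against 26.1% of all genes) and 12 lower (against 23.4%) than in ENR-organoids, and 8 higher (against 23.7%) and 13 lower (against 20.3%) than in -VE-organoids. The linkers H1f0 and Hist1h1c joined H2afy2, H1fx and Hist3h2ba among the genes called higher in both contrasts, and Hist1h2br was called higher against ENR-organoids. The members called lower against ENR-organoids were H3f3aos, Hist1h2af, Hist1h2ai, Hist2h2aa1 and Hist1h1d, and against -VE-organoids Hist1h2ai, Hist1h2bb, Hist2h2aa1, Hist1h2ap and Hist1h1a.

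H1f0 in stem cells stood at 172, 183 and 168 CPM in ENR-, 172 and 172 in -VE- and 427, 429 and 328 in Hyper-organoids. The 5 libraries without VPA and EPZ6438 lay between 168 and 183 CPM, under every Hyper library, and the rise was 2.26-fold against ENR- (log2 1.18 ± 0.10, adjusted p = 2.2e-05, edgeR) and 2.29-fold against -VE-organoids (log2 1.20 ± 0.11, adjusted p = 6.0e-05, edgeR). Hist1h1c in stem cells had 12.1, 15.5 and 14.3 CPM in ENR-, 13.0 and 17.4 in -VE- and 41.0, 44.7 and 34.1 in Hyper-organoids, again without overlap. Its rise was 2.87-fold against ENR- (log2 1.52 ± 0.15, adjusted p = 5.3e-05, edgeR) and 2.63-fold against -VE-organoids (log2 1.39 ± 0.16, adjusted p = 0.00017, edgeR). In stem cells Hist1h1c thus did not show the low -VE values that it had over all cells.

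Of the 3 genes of largest change, H2afy2 and Hist3h2ba had at most 7 UMIs per library in stem cells outside Hyper-organoids, and H1fx had 10 to 46. H2afy2 had 7, 1 and 1 UMIs in the ENR and 2 and 3 in the -VE libraries, against 1140, 1307 and 710 in the Hyper libraries (21.5, 23.9 and 19.0 CPM). Its fitted log2 difference was 6.24 (95% interval 5.64 to 6.85) against ENR- and 8.09 (7.38 to 8.80) against -VE-organoids (adjusted p = 1.4e-06 and 1.5e-06, edgeR). Over the alternatives the first ranged from 5.76 (without ENR replicate 2) to 7.66 (without ENR replicate 1), wider than its interval. Hist3h2ba had 2, 3 and 2 UMIs in ENR-, 3 and 3 in -VE- and 421, 511 and 304 in Hyper-organoids (7.96, 9.35 and 8.13 CPM), with log2 differences of 5.25 (4.76 to 5.74) and 6.50 (5.96 to 7.03). H1fx had 2.27, 2.23 and 1.39 CPM in ENR-, 1.54 and 0.759 in -VE- and 12.7, 25.2 and 14.3 in Hyper-organoids, at 3.096 ± 0.36 and 3.94 ± 0.40 on the log2 scale (adjusted p = 0.00012 and 8.6e-05, edgeR). With so few UMIs on the low side, the sizes of the first pair of folds are imprecise while the direction was the same in every library. H2afy2 and Hist3h2ba passed the low-count filter of the stem fit only because of their Hyper libraries.

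Of the genes called lower in stem cells, only Hist1h1d and Hist1h2ap stood above 2 CPM in every group. Hist1h1d had 9.17, 8.60 and 6.25 CPM in ENR- and 3.93, 4.03 and 2.97 in Hyper-organoids (log2 -1.15 ± 0.18, adjusted p = 0.0007, edgeR). Hist1h2ap had 48.2 and 57.9 CPM in -VE- and 34.0, 22.9 and 18.6 in Hyper-organoids, against 33.3, 21.7 and 15.3 in ENR-organoids, so the -VE libraries were highest. Its difference of -1.07 ± 0.28 against -VE-organoids (adjusted p = 0.012, edgeR) was -0.91 with the culture series as a block, which is under 2-fold. It was also under 2-fold without Hyper replicate 2 (-0.98) or replicate 3 (-0.90), and without -VE replicate 2 its adjusted p was 0.086 (edgeR). Hist1h1a had 2.31 and 2.74 CPM in -VE- and 1.36, 1.17 and 1.15 in Hyper-organoids, at -1.04 ± 0.22 (adjusted p = 0.0046, edgeR), and lost the call without -VE replicate 2 (-0.92), Hyper replicate 2 (-0.98) or Hyper replicate 3 (-0.99).

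The remaining members called lower in stem cells rested on few UMIs. Hist1h2ai had 4, 4 and 2 UMIs in ENR-, 11 and 14 in -VE- and 8, 5 and 4 in Hyper-organoids, and with the culture series as a block its adjusted p against ENR-organoids was 0.071 (edgeR). Hist2h2aa1 had 12, 13 and 4 UMIs in ENR-, 23 and 34 in -VE- and 18, 18 and 20 in Hyper-organoids, Hist1h2af had 9, 7 and 5 in ENR- and 19, 5 and 6 in Hyper-organoids, and Hist1h2bb had 38 and 32 in -VE- and 30, 28 and 13 in Hyper-organoids. Against ENR-organoids Hist1h2ai was called in 3 of 13 alternatives, Hist2h2aa1 in 5 and Hist1h2af in 7. Against -VE-organoids Hist1h2ai was called in 10 of 13, Hist2h2aa1 in 6 and Hist1h2bb in 4, the last with an adjusted p of 0.067 with the block (edgeR). Hist1h2br, called higher with 5, 2 and 4 UMIs in ENR- and 71, 79 and 29 in Hyper-organoids, had an adjusted p of 0.068 without ENR replicate 2 (edgeR). H3f3aos had 8, 8 and 9 UMIs in ENR- and 14, 7 and 8 in Hyper-organoids (0.627, 0.661 and 1.25 against 0.265, 0.128 and 0.214 CPM), and at -1.98 ± 0.47 on the log2 scale its call held in 13 of 13 alternatives.

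Within the transit amplifying class 73 members were tested. Against ENR-organoids 3 were called higher (against 17.2% of 14553 genes) and 1 lower (against 3.78%), and against -VE-organoids 7 were called higher (against 15.5%) and 0 lower (against 2.32%; DESeq2 also called 0, and 1 member was lower at an unadjusted p under 0.05). At an adjusted p under 0.05 and any fold (edgeR), 9 of 73 were higher (against 29.2% of all genes) and 8 lower (against 26.6%) than in ENR-organoids, and 16 higher (against 25.4%) and 1 lower (against 21.9%) than in -VE-organoids. The genes called higher against ENR-organoids were again H2afy2, Hist3h2ba and H1fx, at log2 differences of 8.50 ± 0.21, 4.66 ± 0.32 and 3.62 ± 0.27, and H3f3aos was lower at -1.19 ± 0.31 (adjusted p = 0.011, edgeR). H2afy2 had 3, 4 and 1 UMIs in ENR-, 9 and 10 in -VE- and 1744, 2135 and 968 in Hyper-organoids. It passed the low-count filter of this fit only because of the Hyper libraries. H1f0 had 368, 391 and 316 CPM in ENR-, 338 and 309 in -VE- and 685, 710 and 610 in Hyper-organoids, which did not overlap. Its rise was 1.86-fold against ENR- (adjusted p = 6.5e-05) and 2.06-fold against -VE-organoids (adjusted p = 0.00011) in edgeR, and the second was just under 2-fold without -VE replicate 2 (log2 0.97) or Hyper replicate 2 (log2 1.00).

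The other members called higher against -VE-organoids in this class were the H2B genes Hist2h2be and Hist1h2bc and the H2A gene Hist1h2ac. Hist2h2be had 1.92 and 1.15 CPM in -VE- and 3.12, 3.27 and 4.98 in Hyper-organoids (log2 1.31 ± 0.28, adjusted p = 0.0051, edgeR), and 0.97 on the log2 scale without -VE replicate 2. Hist1h2bc had 19.4 and 18.4 CPM against 41.4, 31.5 and 46.6 (log2 1.07 ± 0.17, adjusted p = 0.0011, edgeR). Hist1h2ac had 6.02 and 4.97 CPM against 8.78, 8.46 and 17.9 (log2 1.08 ± 0.31, adjusted p = 0.020, edgeR), so that Hyper replicate 3 was set apart, and without it the log2 difference was 0.65. With the culture series as a block, Hist1h2bc (0.94) and Hist1h2ac (0.80) came under 2-fold, while Hist1h1a (1.19) and Hist1h2ad (1.12) passed. Hist1h2ac was also not called without -VE replicate 1 (adjusted p = 0.059, edgeR) or replicate 2 (adjusted p = 0.14, edgeR), and Hist1h2bc was at 0.95 without Hyper replicate 3.

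The effect of the Hyper against the ENR medium was compared between the 2 classes in a single fit (an interaction of class and medium). Of 72 members tested, 10 differed at an adjusted p under 0.05 (edgeR), against 14.5% of 14350 genes. Hist1h1c differed most clearly: its log2 rise was 1.52 in stem cells and 0.42 in transit amplifying cells, a difference of -1.13 ± 0.09 (adjusted p = 1.1e-06, edgeR). H1f0 rose more in stem cells too, with 1.18 against 0.90 (adjusted p = 0.0015, edgeR). Hist1h4i had a log2 difference between the media of 0.05 in stem cells, where it did not pass, and of -0.55 in transit amplifying cells (adjusted p of the difference 0.00082, edgeR). H2afv fell more in stem cells (-0.84 against -0.64) and H2afj less (-0.37 against -0.57). H2afy2, H1fx and Hist3h2ba were among the 62 members that did not pass this test, which does not show that these respond alike in both classes.

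**Figure D3:**
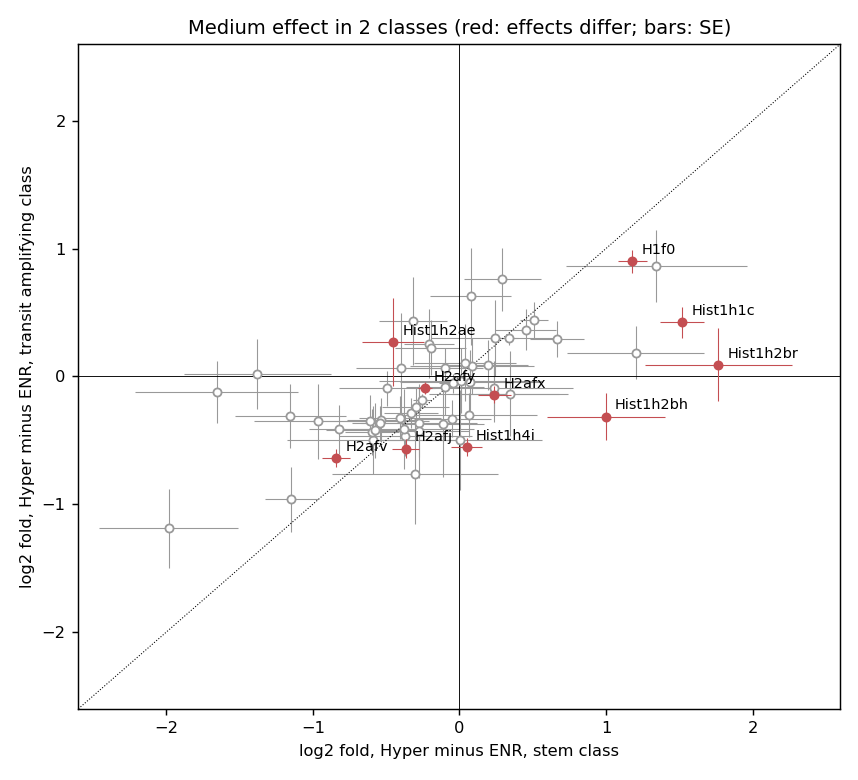
Log2 difference between Hyper- and ENR-organoids in the stem class (x axis) against the transit amplifying class (y axis) for 61 members, with the line of equality; H2afy2, H1fx and Hist3h2ba lie beyond the axes. Red points are the 10 members whose difference between classes passed the test, with Hist1h1c at 1.52 and 0.42.

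Levels across the classes are given as a description without a test, since the classes were made from the same cells. They are CPM of the class total, without the scaling of the fits, and so differ slightly from the fitted levels above. In ENR-organoids 42 of the 57 core replication genes had their highest median CPM in the transit amplifying class, as had 4 of 8 linkers and 2 of 8 variants. Many of these 42 were near the floor. Of the 21 core replication genes with a median of 5 CPM or more in some class, 14 were highest there. The share of all genes highest in that class was not taken. H2afx showed this plainly in ENR-organoids, with 278, 303 and 287 CPM in transit amplifying cells against 37.3, 39.3 and 39.7 in stem and 21.1, 27.1 and 18.7 in enterocytes. Hist1h2ap had 211, 143 and 55.2 CPM in transit amplifying and 32.9, 21.2 and 14.4 in stem cells, so that replicate 3 was low in both. Hist1h2bc went the other way, with 109, 123 and 112 CPM in enterocytes, 64.7, 53.8 and 68.9 in stem and 26.3, 26.9 and 32.5 in transit amplifying cells of ENR-organoids.

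Enteroendocrine cells, the rare hormone-secreting class, stood apart for H1fx, Hist3h2ba and H2afy2. In ENR-organoids H1fx was at 80.0, 41.5 and 68.8 CPM there, against 1.31 to 2.77 in stem and transit amplifying cells, and in Hyper-organoids it was at 41.8, 59.8 and 44.4, which overlaps the ENR values. In goblet cells H1fx was at 0.588 to 1.17 CPM in ENR- and at 14.7, 37.9 and 14.6 in Hyper-organoids, and in enterocytes it stayed at 0.41 CPM or less in every ENR and Hyper library with 20 or more such cells. Hist3h2ba had 10.1, 10.5 and 10.3 CPM in enteroendocrine cells of ENR-organoids and 22.98, 33.4 and 28.5 in those of Hyper-organoids. H2afy2 had 7.77, 5.62 and 6.16 CPM in ENR-, 1.75 and 0.495 in -VE- and 27.1, 25.5 and 32.2 in Hyper-organoid enteroendocrine cells, while it was listed at 0 UMIs in goblet cells of all ENR libraries and at 16.9, 16.5 and 13.5 CPM in those of Hyper-organoids. The enteroendocrine class held 61 to 79 cells and 973667 to 1422270 UMIs in the ENR libraries and 73 and 89 cells in the -VE libraries. The ENR and -VE values of H2afy2 and Hist3h2ba in this class thus rest on few UMIs. Hist1h1c also was highest in enteroendocrine cells, at 212, 164 and 126 CPM in ENR-, 49.7 and 54.5 in -VE- and 116, 136 and 101 in Hyper-organoids. The summed linkers, H1f0 included, overlapped between these media in this class, at 843, 649 and 525 CPM in ENR- and 687, 771 and 565 in Hyper-organoids.

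**Figure D4:**
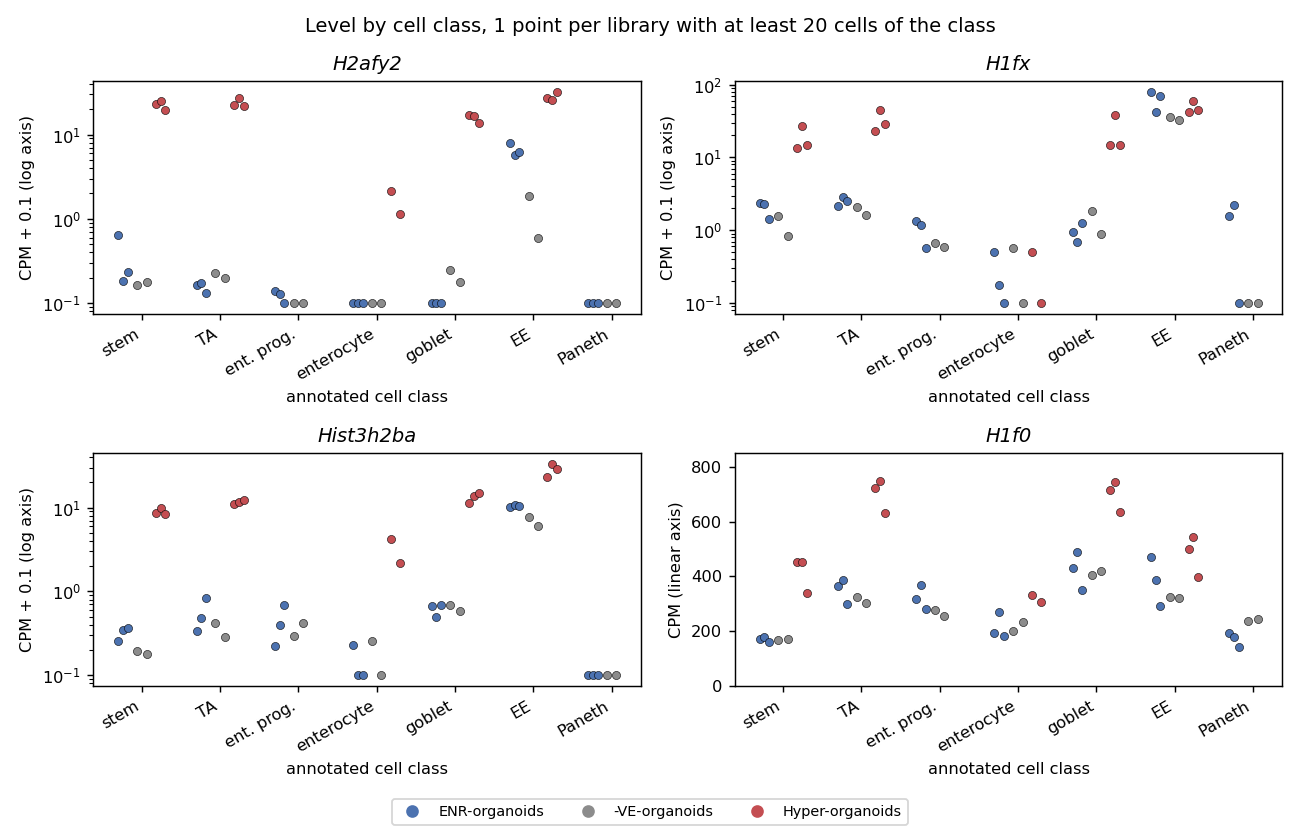
Level of H2afy2, H1fx and Hist3h2ba (y axis, CPM + 0.1 on a log axis) and of H1f0 (CPM, linear axis) by class (x axis) and medium (colour), with 1 point per library; CPM are of the class total, without the scaling of the fits. The 3 genes on the log axes are at 2.77 CPM or less outside enteroendocrine cells in ENR- and -VE-organoids and at 8.38 to 44.7 CPM in stem and transit amplifying cells of Hyper-organoids.

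The share of cells with a UMI was compared after thinning each cell to 10000 UMIs, leaving out shallower cells. H1f0 was found in 75.3%, 74.3% and 71.1% of stem cells in ENR-, 71.8% and 71.97% in -VE- and 96.2%, 95.003% and 91.9% in Hyper-organoids. The mean share was 73.6% ± 2.22 (SD, n = 3) in ENR- and 94.3% ± 2.21 (SD, n = 3) in Hyper-organoids, a difference of 20.8 percentage points with groups that did not overlap (exact permutation test, two-sided, p = 0.1, the smallest that 3 against 3 libraries allow). Without thinning the difference was 4.15 points, since nearly all cells of either medium then held a UMI.

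H2afy2 was found in 0.316%, 0% and 0% of thinned stem cells in ENR- (1 of 316, 0 of 315 and 0 of 228 cells, where a count of 0 allows up to 0.952% and 1.32% of cells with a UMI, which limits detection at this depth and not the share of cells that express the gene), in 0% and 0.0994% in -VE- and in 19.2%, 22.04% and 15.7% in Hyper-organoids. In goblet cells it was found in none of 101, 141 and 119 ENR cells and in 17.5%, 12.6% and 10.5% of Hyper cells, and in enterocytes, a class in which it was near 0 in bulk, in 0 of 186, 327 and 269 ENR cells and 1 of 57 in the Hyper library that could be counted. Median depth before thinning was 40398 UMIs in stem cells and 39062 in enterocytes of ENR replicate 1. In the enteroendocrine class the shares were 6.45%, 4.41% and 7.27% in ENR- and 20.9%, 22% and 21.8% in Hyper-organoids. H1fx went from 2.22%, 1.90% and 1.32% of stem cells in ENR- to 9.94%, 19.3% and 12.8% in Hyper-organoids, and in enteroendocrine cells it was at 41.9%, 22.1% and 29.1% against 23.1%, 32.0% and 19.2%. Hist3h2ba went from 0%, 0.317% and 0% to 6.89%, 8.28% and 7.89% of stem cells. In the Hyper libraries these shares stand for 133 to 322 stem cells with an H2afy2 UMI and 67 to 121 with a Hist3h2ba UMI per library, and most stem cells held no UMI of either gene at this depth.

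Lists of genes that process, carry or deposit histones and of S phase and mitosis genes held 129 tested genes, some in more than 1 list. Over all kept cells 0 of these were called at 2-fold by edgeR or by DESeq2 in the 3 contrasts, against the shares of all genes given above. At an unadjusted p under 0.05 (edgeR), 11 were higher and 57 lower in Hyper- than in ENR-organoids, 2 and 72 than in -VE-organoids, and 20 higher and 3 lower in -VE- than in ENR-organoids. By that rule 9902, 8764 and 3847 of all 16037 genes passed in either direction in these 3 contrasts. Of 22 tested genes of histone mRNA synthesis and processing, which include the stem-loop binding protein Slbp and the cluster activator Npat, 3 rose and 8 fell at an adjusted p under 0.05 (edgeR) in Hyper- against ENR-, and 0 rose and 8 fell against -VE-organoids. At this rule 29.5% of all genes rose and 27.3% fell against ENR-, and 25% rose and 22.6% fell against -VE-organoids. Of 36 histone chaperones 3 rose and 14 fell against ENR-, and 0 rose and 21 fell against -VE-organoids, with medians of -0.16 and -0.24 on the log2 scale. Of 38 S phase genes 4 rose and 7 fell against ENR- and 1 rose and 15 fell against -VE-organoids, and of 37 mitosis genes 0 rose and 20 fell, and 0 rose and 16 fell. Between -VE- and ENR-organoids 1 gene of each of the first 3 lists rose and none of the 4 lists fell at an adjusted p under 0.05 (edgeR), where 4.26% of all genes rose and 3.62% fell. Over all genes the medians of these contrasts were -0.01 and 0.01.

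Within stem cells the S phase genes were lower almost throughout. Of 38, 0 rose and 36 fell in Hyper- against ENR-organoids and 0 rose and 38 fell against -VE-organoids at an adjusted p under 0.05 (edgeR), where the shares of all genes were 26.1% and 23.4%, and 23.7% and 20.3%. Among those called at 2-fold were Cdc45, a helicase loading factor, against both media (log2 -1.07 and -1.20), and Clspn (-1.02) against -VE-organoids. Of the 36 chaperones 1 rose and 26 fell against ENR- and 0 rose and 25 fell against -VE-organoids, with Tonsl, which binds newly deposited histones, called lower in both (log2 -1.15 and -1.02, the second not called by DESeq2). Of the 22 processing genes 0 rose and 16 fell in each contrast. Mitosis genes went both ways against ENR-organoids, with 13 of 37 that rose, Hmmr (1.03) and Cdc25c (1.09) being called, and 3 that fell, of which Top2a (-1.16) was called. Against -VE-organoids 1 rose and 14 fell, with Top2a (-1.40) and Aurkb (-1.26) called. In transit amplifying cells 0 of the 129 genes were called by edgeR or by DESeq2 in either contrast, with 19 higher and 45 lower against ENR- and 16 and 33 against -VE-organoids at an unadjusted p under 0.05 (edgeR). By that last rule 8776 and 7906 of all 14553 genes passed in either direction in these contrasts. In stem cells the summed S phase level was 2607 to 2937 CPM in ENR-, 2731 to 2907 in -VE- and 1865 to 2161 in Hyper-organoids, while the summed core replication genes were at 156 to 179, 196 to 197 and 196 to 236 CPM. The linkers H1f0 and Hist1h1c were higher in the Hyper libraries, in which the S phase sum of stem cells was lower, and the part of S phase in these levels was not tested. In transit amplifying cells the S phase sums of 1886 to 2339 CPM in ENR- and 2332 to 2555 in Hyper-organoids overlapped as ranges, as did the core replication sums of 295 to 567 and 513 to 587. Within each of the 3 culture series, however, the Hyper library was the higher in these sums, with S phase sums of 2284 and 2421, 2339 and 2555, and 1886 and 2332 CPM and core replication sums of 567 and 578, 455 and 513, and 295 and 587 CPM in ENR- and Hyper-organoids. The sums are CPM of the class total, without the scaling of the fits, and the differences in series 1 are small enough to change with it. In the fit of this class the median log2 difference against ENR-organoids was 0.06 over the S phase genes and -0.12 over the core replication genes.

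In the colon, 1 library per group allows no test, and intervals are exact Poisson 95% intervals for counting error only. Over clusters in which at most 50% of cells held a UMI of the leukocyte gene Ptprc, the normal library had 913 cells and 19100079 UMIs and the DSS library 1488 cells and 30476073 UMIs. Of 37 members at 1 CPM or more in either library, 0 were 2-fold higher in DSS (against 2.42% of 11883 genes, on CPM + 1) and 0 were 2-fold lower (against 1.73%). The make-up of the libraries differed. Of 19 such clusters, 4 made up 52.6% of cells in the normal library but 0.336% in the DSS library, and another 7 made up 2.96% and 46.2%, so levels over the pooled clusters mix the share of clusters with levels within them. The intervals of 10 of the 37 lay wholly higher in DSS, against 21.7% of all genes, and those of 2 wholly lower, against 17.7%. The member nearest 2-fold, named after its values were seen, was Hist3h2a at 8.80 CPM (7.52 to 10.2) in normal and 17.7 (16.2 to 19.2) in DSS crypts, and with 0.1 CPM added in place of 1 and Ptprc-positive cells left out it was the 1 member past 2-fold. H2afv was at 110.7 CPM (106.1 to 115.6) in normal and 166 CPM (162 to 171) in DSS crypts, H2afj at 377 (368 to 386) and 525 (517 to 534), and Hist1h1c at 86.0 (81.9 to 90.3) and 119 (115 to 123). The intervals of these 3 did not overlap, and the DSS value was the higher, as it was for Hist1h4i at 11.9 (10.4 to 13.5) and 18.0 (16.5 to 19.6). Hist1h2ap, at 15.1 (13.4 to 16.9) and 10.7 (9.54 to 11.9), and H2afy, at 161 (156 to 167) and 147 (143 to 152), were the 2 that were lower in DSS. Within the 5 clusters that held at least 20 cells of both libraries, H2afv, H2afj and Hist1h1c were each higher in DSS in 5 of 5, Hist3h2a in 4, Hist1h4i in 3, and Hist1h2ap and H2afy were lower in 4. H1f0 was at 158 (153 to 164) and 177 (173 to 182) CPM and H3f3b at 1848 (1829 to 1868) and 1906 (1891 to 1922). Within the same 5 clusters H1f0 was higher in DSS in 4 and lower in 1, while H3f3b was higher in 2 and lower in 3. H1fx was at 6.44 (5.35 to 7.68) and 4.86 (4.11 to 5.70), Hist3h2ba at 1.10 (0.681 to 1.68) and 0.788 (0.505 to 1.17), and H2afy2 at 0.576 (11 UMIs) and 0.263 (8 UMIs). Over the pooled clusters none of these 3 genes, those of largest change in Hyper-organoids, was thus higher in the DSS library. The intervals of H1fx and of Hist3h2ba overlapped, H2afy2 rests on few UMIs, and the 3 were not compared within clusters. The colonic and small-intestinal libraries differ in organ and in being fresh tissue or culture, so their levels were not compared.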

How the data were processed

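Droplet 3′ single-cell RNA-seq libraries (8 of organoids, 2 of colonic crypts) were analysed. Per the submitters' processing notes the authors used Cell Ranger 3.0.0, Seurat 3.1.4 and the mouse build mm10. The deposited values are raw UMI counts per gene and cell, with the authors' list of kept cells and their class labels. Kept cells held at most 20% mitochondrial UMIs, and no further cell was removed. Doublets were not called here. Whether counting used strand is not given in the sources used here, so H3f3aos and the members that overlap another gene cannot be told from reads of the other strand with certainty.

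Counts were summed per library over all kept cells and within the SC and TA classes. They were fitted in edgeR 4.0.16 (R 4.3.3; TMM scaling, filterByExpr, quasi-likelihood test) with the 3 groups of organoids in 1 fit and p-values adjusted over all genes tested (Benjamini-Hochberg). A gene was called at an adjusted p under 0.05 and at least 2-fold. Levels beside a fit are CPM after that scaling, whereas levels compared across classes, sums over a role or list and levels of the colon are CPM of the class or library total. The interaction of class and medium used the same test. Shares of cells with a UMI were compared after thinning to 10000 UMIs. The code was tested on simulated counts. The alternatives were DESeq2 1.42.0, RLE size factors, no filter or at least 10 CPM in 2 libraries, all barcodes, kept cells with at least 1500 genes, other thinning depths, a pseudocount of 0.1 CPM in the colon, the culture series as a replicate block and leaving out each library. Same-series ENR- and Hyper-organoid libraries deviated together from their group means (correlations over genes 0.192, 0.170 and 0.436). ENR- and Hyper-organoid libraries of different series had correlations of -0.292 to 0.129, and those between series 1 and 2 were 0.129 and 0.0619. The series pairs libraries through the shared first character of the library codes, and the main fits do not use that pairing.

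The text names every tested linker and variant gene, of the core replication genes the 5 of highest mean CPM and up to 6 called genes per direction and contrast, and up to 3 called genes of each gene list. Other core genes (Hist3h2a, Hist1h2ad, Hist1h2bh and those that fell from ENR- to -VE-organoids) were named after their values were seen. The members, gene lists and tests were chosen with earlier results of these data known. Loci and transcript ends were read from GENCODE vM21 (GRCm38) and promoters from RefSeq (GRCm38.p6), where H1fx, H2afy2 and Hist3h2ba carry newer symbols. RNA of the colonic libraries was compared without a test. Figures were drawn with matplotlib 3.10.9.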

Additional observations from a re-analysis of the deposited data

Results flagged for a closer look

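The effect of the Hyper against the ENR medium differed between transit amplifying and stem cells for 10 of 72 members by the test of the interaction of class and medium (edgeR's quasi-likelihood test, adjusted p under 0.05), against 14.5% of 14350 genes tested. Given as the log2 effect in transit amplifying cells minus that in stem cells, the linker genes were Hist1h1c at -1.13 and H1f0 at -0.29. The variant genes were H2afj at -0.20, H2afv at 0.19, H2afx at -0.39 and H2afy at 0.14. The core replication genes were Hist1h4i at -0.64, Hist1h2br at -1.80, Hist1h2bh at -1.45 and Hist1h2ae at 0.64. Hist1h2br and Hist1h2bh had 2 to 11 UMIs in the stem class of each ENR library, and each kept its p under 0.05 in 4 of 6 alternatives. Hist1h2ae kept it in 5 of 7, H2afy in 6 of 7 and the other 6 genes in 7 of 7. H2afx was at 37.7, 40.1 and 42.1 CPM in stem cells of ENR-organoids and at 52.7, 49.4 and 38.9 in those of Hyper-organoids, so its groups overlapped there.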

How the results depend on the processing

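Of 41 calls of named members, 26 held in every alternative that could test them and none changed sign. H2afy2, H1fx and Hist3h2ba held in every alternative that tested them, over all cells and in both classes. With at least 10 CPM in 2 libraries they were tested only through their high Hyper libraries, so that setting does not bear on them. Hist3h2ba was not tested in stem cells there. The main filter also let H2afy2 and Hist3h2ba into the stem fit, and H2afy2 into the transit amplifying fit, only because of the Hyper libraries. With no filter on low counts these calls held. The filter at 10 CPM left 22 of 73 members to test over all cells and 15 of 64 in stem cells. There Hyper- against ENR-organoids called 3 in place of 6 members over all cells (9.50% of all genes) and 4 in place of 11 in stem cells (7.64%), and Hyper- against -VE-organoids called 5 in place of 3 over all cells (6.27%) and 4 in place of 10 in stem cells (6.14%). With the culture series as a replicate block (the pairing of libraries), Hyper- against -VE-organoids called 5 members over all cells (19.1% of all genes), 8 in stem cells (16.9%) and 7 in transit amplifying cells (18.5%), and the counts for Hyper- against ENR-organoids were 6 (23.6%), 10 (18.5%) and 4 (21.5%). Between -VE- and ENR-organoids DESeq2 called 1 member (3.50% of all genes) and the counts over all barcodes called 3 (4.10%), in place of 0, all lower in -VE-organoids. Leaving out 1 library gave 5 to 7 members for Hyper- against ENR-organoids over all cells (21.1% to 22.9% of all genes), 7 to 11 in stem cells (15.8% to 17.7%, with 7 without ENR replicate 2) and 4 to 6 in transit amplifying cells (19.5% to 20.9%). For Hyper- against -VE-organoids it gave 3 to 5 over all cells (13.4% to 18.6%, with 5 without Hyper replicate 3), 6 to 11 in stem cells (11.6% to 16.9%, with 6 without -VE replicate 2 and also without Hyper replicate 2) and 4 to 7 in transit amplifying cells (13.8% to 18.04%, with 4 without -VE replicate 2). Between -VE- and ENR-organoids it gave 0 to 1 (0.579% to 3.28%, with 1 without ENR replicate 1), and for the interaction 8 to 14 (9.20% to 14.97%). The cause of these moves was not tested. The share of stem cells with an H1f0 UMI differed by 19.5 to 22.03 points when 1 library was left out and by 10.1 points at 20000 UMIs. The folds of Hist1h2ai, Hist2h2aa1, Hist1h2af and Hist1h2bb in stem cells rest on few UMIs, and their calls were lost in 3 to 10 of 13 alternatives.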
